A study of Mus musculus with 7 samples.

Results

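The 6 actin genes of the mouse were followed in bladder: Actg2 and Acta2, the smooth muscle actins, Acta1 and Actc1, the actins of skeletal and cardiac muscle, and Actb and Actg1, the actins of the cytoskeleton that nearly every cell uses. The 6 are among 18194 genes that the array names by a probe set of their own. Members were all probe sets that the platform annotation assigns to one of these genes alone. This gave 12 of the 45101 probe sets of the array: 1 each for Actg2, Acta1, Actc1 and Actg1, 3 for Acta2 and 5 for Actb, of which 3 are Affymetrix control probe sets. No probe set named an actin together with another gene. The probe set with the highest mean over the 7 arrays stands for its gene, and the others are given beside it.

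RNA came from 3 adult and 3 postnatal day 1 bladders, all of male FVB/N mice with the SMGA/EGFP transgene, in which a promoter of Actg2 drives a fluorescent protein, so the adult and the newborn bladders carry it alike. Of adult age the labels give only Theiler stage 28. A single array held whole wild-type FVB/N newborns of postnatal day 1, a pool of 4 males and 4 females. Its title speaks of bladders, whereas its source and extraction are of the entire mouse, which is how it is used. Bladders were taken whole, so each array mixes detrusor muscle, urothelium, vessels and connective tissue, and a lower value can mean fewer cells of a type or less RNA per cell. Liquid nitrogen was used to keep the adult bladders and a freezer the newborn ones, and the effects of storage and stage cannot be told apart. The bladder arrays differ from the whole newborns in tissue, genotype, sex and pooling at once.

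Actin monomers assemble into the thin filaments along which myosin pulls. In smooth muscle the filaments hold mainly Acta2 and Actg2, and Actg2 is typical of visceral organs such as bladder and gut, while Acta2 is also the main actin of vessel walls. Acta1 and Actc1 are best known from striated muscle, where they form the sarcomere, and both are also known from other muscle during development. Transcription of the muscle actins is driven in large part by serum response factor, which binds a short element called the CArG box, together with its partners of the myocardin family.

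The RefSeq promoter table (build GRCm38.p6) held 4 of the 6 genes. The 140 bases before the transcription start of each are shown, on the minus strand and from 5′ to 3′, because they hold every exact CArG box found in the 250 bases searched in these promoters. Capitals mark every match in the window, either exact or with 1 base of the inner run of 6 other than A or T.

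Acta2: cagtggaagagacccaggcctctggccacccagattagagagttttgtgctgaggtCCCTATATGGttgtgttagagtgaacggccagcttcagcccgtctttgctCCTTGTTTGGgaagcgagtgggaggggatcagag
Acta1: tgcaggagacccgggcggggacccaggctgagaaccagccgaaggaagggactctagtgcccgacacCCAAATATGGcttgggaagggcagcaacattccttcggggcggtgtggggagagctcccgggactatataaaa
Actc1: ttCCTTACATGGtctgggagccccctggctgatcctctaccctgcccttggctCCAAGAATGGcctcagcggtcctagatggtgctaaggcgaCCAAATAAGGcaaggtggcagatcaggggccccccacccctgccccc
Actg1: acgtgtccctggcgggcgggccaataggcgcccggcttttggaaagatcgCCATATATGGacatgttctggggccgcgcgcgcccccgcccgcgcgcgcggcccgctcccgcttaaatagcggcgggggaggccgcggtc

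The windows lie at chr19:34255374-34255513 for Acta2, chr8:123894776-123894915 for Acta1, chr2:114052876-114053015 for Actc1 and chr11:120348496-120348635 for Actg1. An exact CArG box was found in 3 of the 4: CCAAATATGG in Acta1, starting 73 bases before the transcription start, CCAAATAAGG in Actc1, starting 47 bases before it, and CCATATATGG in Actg1, starting 90 bases before it. Acta2 had none that was exact and 2 that deviate by 1 base, CCCTATATGG and CCTTGTTTGG. Farther up in the 250 bases, and not shown, lay CCATATACGG and CCTTCTTTGG in Acta1 and CCCTATATGG in Actc1, each with 1 deviating base. The element reads alike on both strands. Over 250 bases before the start, 1.47% of the 32851 promoters of the table held an exact match and 7.24% a match with 1 deviating base. A match describes the letters and was not tested for binding.

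The 7 arrays had been scaled by the authors to 1 trimmed mean, but their upper ends differed: the highest value of an array ranged from 74986 in adult replicate 3 to 143536 in adult replicate 2. Many actin probe sets lay close to that upper end. Of the 6 genes, 4 exceeded 50% of the array maximum on each adult array, 5 to 6 on each newborn bladder array and 3 on the whole newborn array. No saturation flag is among the values used here, and whether a signal ceiling compressed these values was not tested. Markers fixed for the tissue were in place: all 8 smooth muscle markers and all 10 urothelial markers lay above the array median on every bladder array. On the whole newborn array 6 of the 8 and 9 of the 10 did so too, so this count does not single out bladder. Transcripts of male accessory glands were present in adult replicates 1 and 3, where the 11 markers summed to 11064 and 11263. Adult replicate 2 had a sum of 560, and the newborn bladders had 379 to 684. Glands of the male tract also have a smooth muscle wall, so the actin differences are also given with adult replicate 2 as the only adult array, which is then assumed to vary like the newborn ones.

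**Figure D1:**
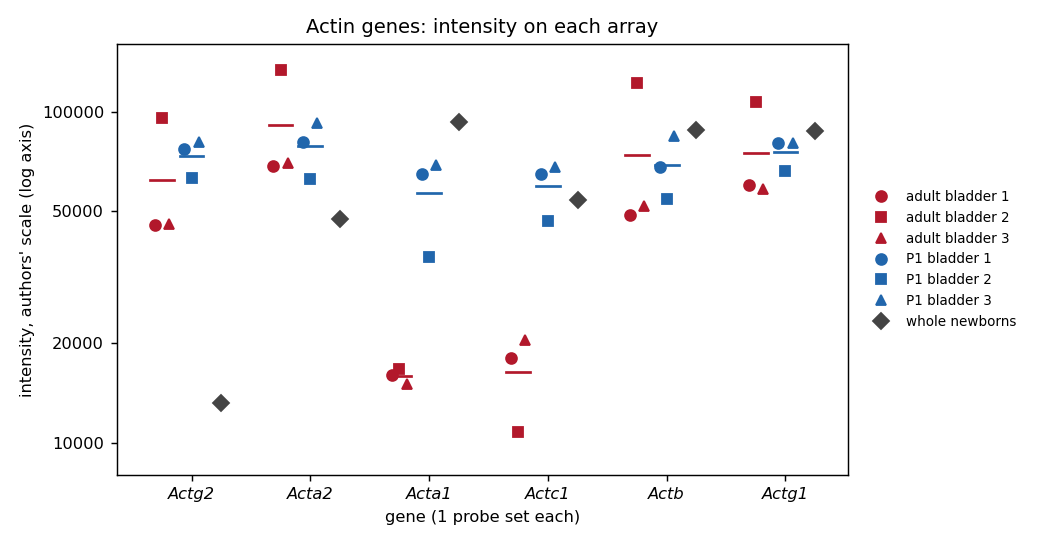
Intensity (authors' scale, log axis) of the probe set that stands for each actin gene, with 1 point for each array and a short line at the mean of each group of 3 bladders; P1 is postnatal day 1. Acta1 and Actc1 separate the adult bladders, at most 20442, from the newborn bladders, at least 36496, and the square of adult replicate 2 stands high for Actg2, Acta2, Actb and Actg1.

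Setting adult against postnatal day 1 bladder asked which actins differ between the mature and the growing organ. The actins of striated muscle fell: by their means, Acta1 was 3.56 times and Actc1 3.65 times higher in newborn bladder. Neither smooth muscle actin and neither cytoskeletal actin passed the test. By limma with Benjamini-Hochberg adjustment over all 23309 probe sets tested, 2 of the 12 actin probe sets were called, 0 higher and 2 lower in adult bladder. Among all probe sets tested 7.85% of probe sets were called, 3.73% higher and 4.12% lower.

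Acta1, the actin of skeletal muscle, read 15961, 16692 and 15073 in adult replicates 1 to 3 and 64605, 36496 and 68941 in postnatal day 1 replicates 1 to 3. All newborn bladders lay above all adult bladders, and the adult values stood close together. The means were 15909 ± 811 and 56681 ± 17614 (SD, n = 3), a log2 difference of -1.78 (SE 0.25, 95% interval -2.35 to -1.21, adjusted p = 0.00476). Actc1, the actin of the heart, read 17970, 10749 and 20442 in adult and 64797, 46570 and 67930 in newborn bladders. Here too the groups did not overlap, as was so for 29.2% of all probe sets tested. The means were 16387 ± 5037 and 59766 ± 11535 (SD, n = 3), a log2 difference of -1.90 (SE 0.27, 95% interval -2.51 to -1.29, adjusted p = 0.00481). In adult replicate 2, Actc1 was the lowest of the adult values and Acta1 the highest. With adult replicate 2 as the only adult array, Acta1 was no longer called (log2 difference -1.71, adjusted p = 0.092) and Actc1 still was (-2.45, adjusted p = 0.0262).

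Striated muscle markers also had lower sums in adult bladder, and their part in the falls of these actins was not tested. The 11 skeletal muscle markers summed to 4463 to 16108 in adult and 36630 to 51058 in newborn bladders, with 3 of 11 above the array median on each adult array and 7 to 9 on the newborn ones. Among newborn bladders the sum was lowest in postnatal day 1 replicate 3, where Acta1 and Actc1 were highest. Among adult bladders it was highest in adult replicate 2, where Acta1 was also highest and Actc1 lowest. A sum of intensities follows its brightest markers, and these orders of 3 arrays were not tested. Of the 11, 8 were above the median on no adult array, Myh3, Myh8 and Mylpf among them. Myh3, the embryonic myosin, read 13091, 10013 and 389 in newborn bladders and at most 16.4 in adult ones. The 10 cardiac markers summed to 11726 to 30851 in adult and 65973 to 75869 in newborn bladders, with 2 to 3 and 4 to 5 above the median. Much of the cardiac sum was Tnnt2, a troponin T also known from immature muscle outside the heart, at 45889 to 54134 in newborn and 8780 to 29910 in adult bladders (log2 difference -1.37, adjusted p = 0.0697). Of the 10 cardiac markers 4 were tested and 2 were called lower in adult bladder. These were the myosin light chain Myl4 (-4.67, adjusted p = 0.00292) and the myosin heavy chain Myh7 (-3.76, adjusted p = 0.00879). Of the skeletal muscle markers 7 were tested and 5 were called lower. Over all genes tested, 4.95% were called lower. Only markers above the array median in at least 3 of the 6 bladder arrays were tested, so both counts depend on that filter. Myl4 read 356, 2278 and 384 in adult and 23088, 16696 and 17227 in newborn bladders. Myl2 and Myl3, light chains of the ventricle and of slow skeletal muscle, read at most 139.5 and 84.9 on any bladder array.

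The sarcomere partners of these actins were set against the whole newborns, which contain the skeletal muscle and heart of the animal. Acta1 in newborn bladder stood at 69.7%, 39.4% and 74.3% of its whole newborn value in postnatal day 1 replicates 1 to 3, and Actc1 at 120.0%, 86.2% and 126%. Of 21 genes of the striated thin filament and sarcomere, 16 had a newborn bladder mean under 25% of the whole newborns, 3 lay between 25% and 100%, and 2 were above. The median was 7.72%. The 2 above were Tnnt2, at 715%, and Flnc, a filamin of muscle, at 191%. Tnnt1, the slow troponin T, was at 84.6%, Tnnc2, the fast troponin C, at 21.1%, and Ttn, the giant spring protein titin, at 1.51%. Acta1 stood at 80.7% of the array maximum in the whole newborns, and the part of a signal ceiling in its shares was not tested. In adult bladder Acta1 was at 16.3% to 18.0% and Actc1 at 19.9% to 37.9%, and the median of the 21 genes was 2.05%.

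**Figure D2:**
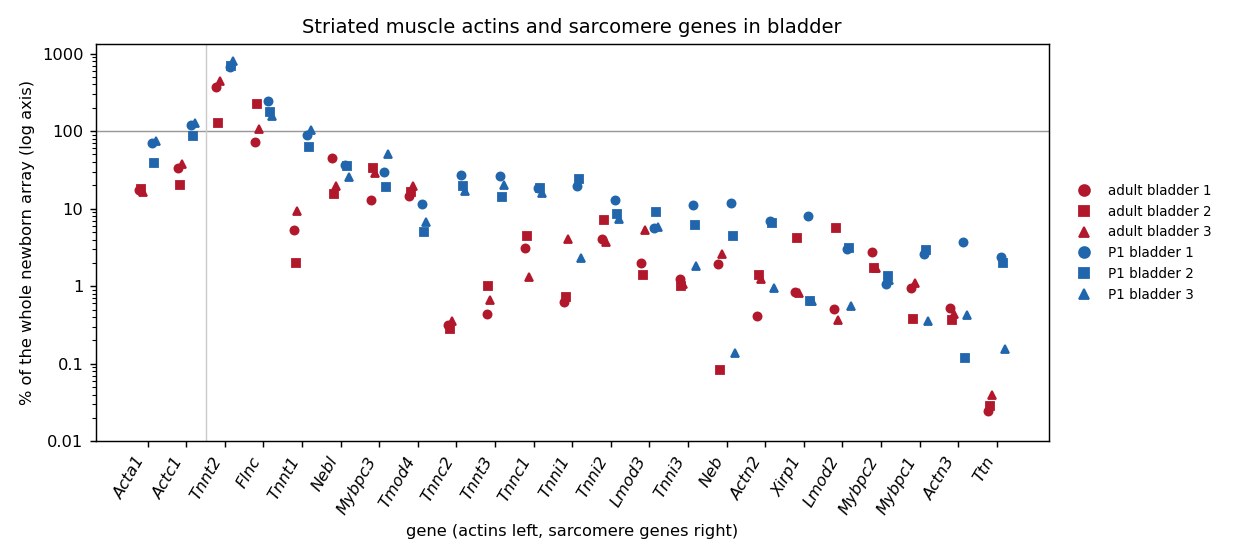
Acta1, Actc1 and 21 sarcomere genes on each bladder array as a percent of the whole newborn array (log axis); red points are adult and blue points postnatal day 1 bladders, the horizontal line marks 100% and the vertical line separates actins from sarcomere genes. In newborn bladder Actc1 lies near the line and Acta1 at 39.4% to 74.3%, above every sarcomere gene but Tnnt1, Tnnt2 and Flnc by mean.

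Of the smooth muscle actins, Actg2 read 45507, 95597 and 45664 in adult and 77182, 62904 and 80933 in newborn bladders. Adult replicate 2 was above every newborn array and the other adult arrays below every one. The log2 difference was -0.33 (SE 0.28, 95% interval -0.96 to 0.31, adjusted p = 0.536). Without adult replicate 2 it was -0.68 and called (adjusted p = 0.0225), and with adult replicate 2 as the only adult array it was 0.38 (adjusted p = 0.375), so adult replicate 2 and the other adult arrays differed in direction. Acta2 read 68724, 133977 and 69997 in adult and 81161, 62575 and 92535 in newborn bladders, again with adult replicate 2 on top and the other adult arrays inside the newborn range. The log2 difference was 0.15 (SE 0.27, 95% interval -0.46 to 0.76, adjusted p = 0.787), and -0.16 without adult replicate 2 (adjusted p = 0.559). With adult replicate 2 as the only adult array it was 0.78 (adjusted p = 0.172), and by the mean of the 3 Acta2 probe sets it was -0.35 (adjusted p = 0.463), so its direction is not settled.

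Within an array, the log2 value of Actg2 minus that of Acta2 was -0.59, -0.49 and -0.62 in adult and -0.07, 0.01 and -0.19 in newborn bladders. Actg2 was thus lower against Acta2 in all 3 adult bladders than in any newborn one, with a mean difference of -0.48 (exact permutation test, two-sided, p = 0.1, the smallest that 3 against 3 arrays can give). The difference was -0.52 without adult replicate 2 and -0.40 with it as the only adult array, so this contrast did not rest on 1 array. It does rest on 1 probe set for each gene, and that of Acta2 can match several transcripts. The contrast was not taken with the other Acta2 probe sets, which order the arrays differently. Acta2 lay near the upper end of the adult arrays, so the part of a signal ceiling in this contrast was not tested, and it does not show which of the actins is more abundant. The same contrast for Acta1 against Actc1 changed by 0.12 (exact p = 0.9) and that for Actb against Actg1 by 0.06 (exact p = 0.7), and the groups overlapped in both.

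Adult replicate 2 exceeded the mean of the other adult arrays by 1.07 on the log2 scale for Actg2, 0.95 for Acta2, 1.28 for Actb and 0.85 for Actg1, but by 0.11 for Acta1, and Actc1 was lower there by 0.83. The first 4 of these are the probe sets near the upper end. Values were therefore also taken as a percent of the mean of the 100 highest values of each array, a scale chosen after the data were seen. Acta2 and Actg1 are among these 100 on every bladder array and Actg2 on every newborn bladder array, so the actins themselves enter this scale. Actg2 was then at 78.5%, 92.0% and 78.1% in adult and 107.7%, 102.6% and 107.8% in newborn bladders, and the groups no longer overlapped. On this scale 22.9% of all probe sets did not overlap, and the log2 difference of Actg2 was -0.35 (SE 0.14, adjusted p = 0.225). Acta2, at 118.5%, 128.9% and 119.7% in adult and 113.3%, 102.1% and 123.3% in newborn bladders, still overlapped. Actg1 also no longer overlapped, at 99.7% to 103.3% in adult and 107.1% to 112.3% in newborn bladders, with a log2 difference of -0.09 (adjusted p = 0.768). Acta1 and Actc1 kept their calls (-1.80, adjusted p = 0.00902, and -1.92, adjusted p = 0.0337).

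**Figure D3:**
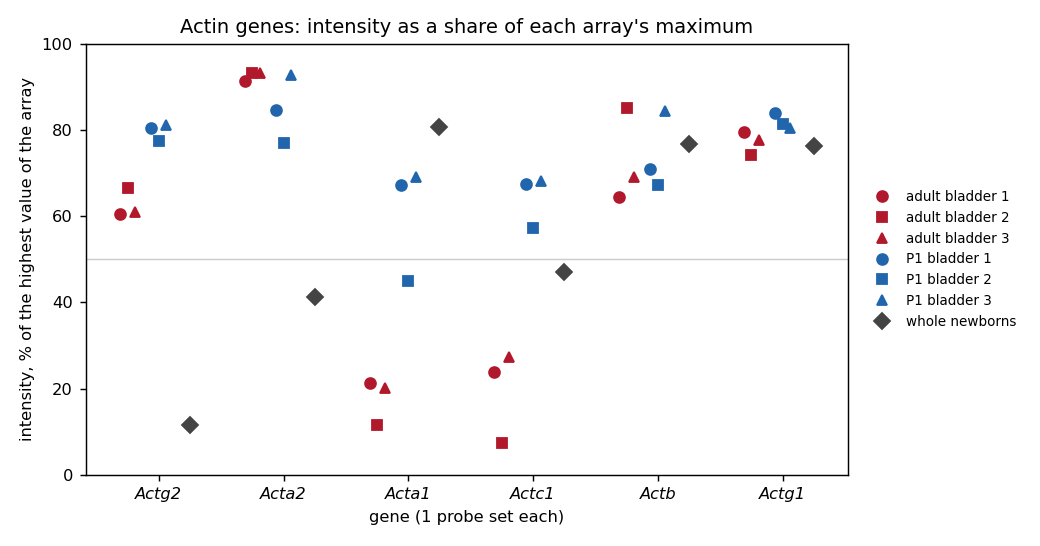
Intensity of each actin gene as a percent of the highest value on the same array, with 1 point for each array; the grey line marks 50%. Acta2 of the adult bladders lies between 91.4% and 93.3%, Actg2 at 60.5% to 66.6% in adult and 77.5% to 81.1% in newborn bladders, and Acta1 and Actc1 fall below 28% in the adult bladders only.

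The cytoskeletal actins, often used as loading controls, showed no difference that passed the test between the stages. Actb, by its 3′ control probe set, read 48546, 122083 and 51842 in adult and 68164, 54599 and 84170 in newborn bladders, with adult replicate 2 above all others and the other adult arrays below all newborn ones. The log2 difference was -0.01 (SE 0.34, 95% interval -0.77 to 0.75, adjusted p = 0.991), and -0.44 without adult replicate 2 (adjusted p = 0.16). Actg1 read 59890, 106519 and 58307 in adult and 80436, 66107 and 80344 in newborn bladders, in the same arrangement. Its log2 difference was -0.07 (SE 0.24, 95% interval -0.61 to 0.47, adjusted p = 0.902), and -0.35 without adult replicate 2 (adjusted p = 0.111). With adult replicate 2 as the only adult array the differences turned to 0.85 for Actb and 0.50 for Actg1, neither called.

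The 5 Actb probe sets gave different sizes for the stage difference, although none was called. From the 3′ to the 5′ end of the transcript, the 3 control probe sets gave -0.01, -0.30 for the middle one and -0.72 for the 5′ one (adjusted p = 0.444). The 5′ control read 10056, 31768 and 10072 in adult and 21413, 14760 and 45473 in newborn bladders. The ratio of the 3′ to the middle control was 1.52 to 1.62 in adult and 1.26 to 1.34 in newborn bladders, without overlap (exact permutation test, two-sided, p = 0.1, the smallest possible). The 3′ over 5′ control ratio, a common sign of RNA quality, was 3.84 to 5.15 and 1.85 to 3.70 (exact p = 0.1). The same ratio of the Gapdh controls lay the other way, at 15.3, 19.6 and 15.4 in adult and 21.6, 30.9 and 19.1 in newborn bladders, and the groups overlapped. The other 2 probe sets, 1436722_a_at and 1419734_at, gave 0.05 and -0.16.

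**Figure D4:**
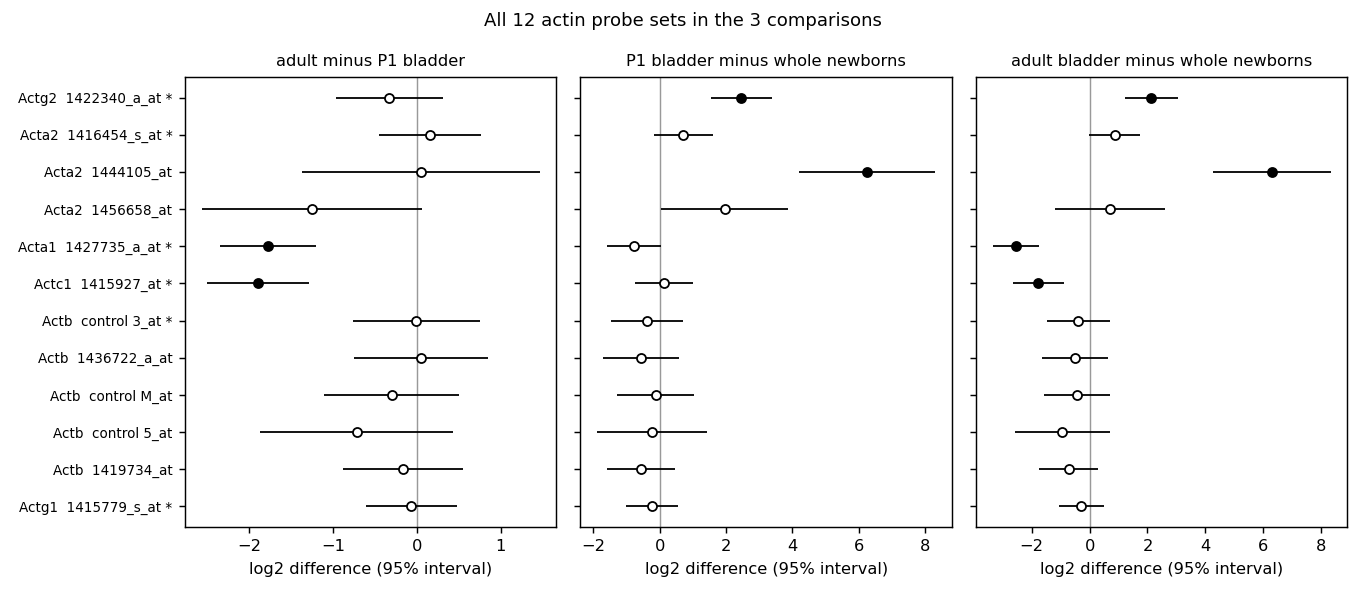
Log2 difference (point) and 95% interval (line) of all 12 actin probe sets in the 3 comparisons; filled points passed an adjusted p of 0.05 and an asterisk marks the probe set that stands for its gene. Only Acta1 and Actc1 are filled in the comparison of the stages, and the probe set 1444105_at of Acta2 lies far to the right in both comparisons with whole newborns.

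The comparison with whole newborns asked which actins set the bladder apart from the animal as a whole. With 1 reference array, its spread was taken from the bladder arrays, and both comparisons share that array. Actg2 rose, as did 1 of the 3 Acta2 probe sets. Actg2 read 13225 in the whole newborns, below every bladder array. The log2 difference was 2.47 for newborn bladder (SE 0.41, adjusted p = 0.00852) and 2.14 for adult bladder (SE 0.41, adjusted p = 0.0116). In ratios of means, newborn bladder stood at 557% and adult bladder at 471% of the whole newborns. In newborn bladder 2 of the 12 actin probe sets were called, both higher, against 7.42% of all probe sets (2.29% higher and 5.13% lower). In adult bladder 4 of 12 were called, 2 higher and 2 lower, against 11.6% (4.39% and 7.2%).

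Acta2 read 47445 in the whole newborns, also below every bladder array, as was so or the reverse for 65.4% of probe sets with newborn and 68.2% with adult bladder. The log2 difference was 0.71 for newborn (SE 0.39, adjusted p = 0.33) and 0.86 for adult bladder (SE 0.39, adjusted p = 0.201). These were called in 4 of 19 alternatives: with quantile normalization (0.88, adjusted p = 0.00983, and 1.00, adjusted p = 0.00405), with median centring (1.39, adjusted p = 0.0162, and 1.53, adjusted p = 0.00758), with values as a percent of the 100 highest (0.97, adjusted p = 0.0289, and 1.09, adjusted p = 0.0131) and by the mean of the 3 Acta2 probe sets (2.97, adjusted p = 0.000848, and 2.62, adjusted p = 0.00139). Median centring raised all differences from the whole newborns by 0.68 for newborn and 0.67 for adult bladder. The mean of the 3 Acta2 probe sets includes 1444105_at (6.25 and 6.30). That probe set read 54.0 in the whole newborns, near the 49 added to every value before the logarithm.

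The other Acta2 probe sets did not follow the first. The probe set 1444105_at read 54.0 in the whole newborns and 10883, 4621 and 10328 in adult and 7454, 21116 and 2974 in newborn bladders. It was called in both comparisons (6.25, SE 0.91, adjusted p = 0.00439, and 6.30, SE 0.90, adjusted p = 0.00288). Adult replicate 2, the highest array by the main probe set, was the lowest adult array by this one, and postnatal day 1 replicate 3 was the highest and the lowest newborn bladder in turn. The probe set 1456658_at read 674, 220 and 726 in adult, 2734, 640 and 1011 in newborn bladders and 276 in the whole newborns, and was called in none of the 3 comparisons. The name of the main set, 1416454_s_at, carries the suffix that Affymetrix gives to probes that can match several transcripts, as does that of Actg1, so signal from other actins cannot be told apart there.

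Acta1 and Actc1 of newborn bladder did not differ from the whole newborns beyond the test (-0.76, 95% interval -1.57 to 0.04, adjusted p = 0.244, and 0.13, 95% interval -0.74 to 1.00, adjusted p = 0.889). In adult bladder both were lower. Acta1 read 92727 in the whole newborns, a log2 difference of -2.54 (SE 0.36, adjusted p = 0.00265), and Actc1 read 54000, a difference of -1.77 (SE 0.38, adjusted p = 0.0197). The Actc1 call was lost with median centring (-1.10, adjusted p = 0.129), without a trend (-1.77, adjusted p = 0.0621) and with values as a percent of the 100 highest (-1.54, adjusted p = 0.148). Actb and Actg1 read 88251 and 87653 in the whole newborns. Their differences were -0.38 and -0.22 for newborn and -0.39 and -0.29 for adult bladder, none called, and all 4 turned positive with median centring (0.31, 0.46, 0.28 and 0.38). With adult replicate 2 as the only adult array, the adult differences were 2.85 for Actg2 (adjusted p = 0.0116), -2.47 for Acta1 (adjusted p = 0.0427) and -2.32 for Actc1 (adjusted p = 0.024). They were 1.5 for Acta2, 0.47 for Actb and 0.28 for Actg1, none called (adjusted p = 0.0525, 0.506 and 0.601).

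By a rule set on likeness, 3 genes were taken for each actin by Pearson correlation of log2 values over the 7 arrays, out of 12189 other genes. These are descriptions over arrays that share their scaling. For Actg2 they were Nop53 (r = 0.992), a ribosome assembly factor, Pllp (0.990) and Filip1l (0.989). For Acta2 they were Zfp46 (0.979), Cdkn1b (0.977), an inhibitor of the cell cycle, and Cald1 (0.971), the actin-binding caldesmon of smooth muscle. For Acta1 they were Mest (0.991), an imprinted gene, Rps19bp1 (0.987) and Hmga2 (0.986), a chromatin protein of fetal tissue. For Actc1 they were Tnnt1 (0.992), the slow troponin T, Apcdd1 (0.990) and Lin7b (0.989). Hmga2 read 7.57, 80.0 and 4.04 in adult and 1460, 467 and 2315 in newborn bladders. Actb and Actg1 were most like Rps2 (0.997), Dda1 and Atxn2l, and Grn (0.991), Rpl7 and Rps28, of which 3 encode ribosomal proteins. Acta1 and Actc1 correlated with each other at r = 0.909 and Actg2 with Acta2 at r = 0.834. An r over 0.9 was reached by 305 genes with Acta1 and by 319 with Actc1. Over the 6 bladder arrays alone, Acta1 with Actc1 gave 0.938 and Actg2 with Acta2 0.796. The latter was below Acta2 with Actb (0.969) and Actg2 with Actg1 (0.952) over these 6 arrays. Over all 7 arrays, which include the whole newborns, each smooth muscle actin was closest to the other among the actins. Actg2 then gave 0.099 with Actb and 0.111 with Actg1, and Acta2 gave 0.530 and 0.494.

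Lists of genes that make, move and hold actin filaments were followed between the stages, with 1 probe set for each gene. Over all 11929 genes tested, 8.97% were called, 4.02% higher and 4.95% lower in adult bladder, with a median log2 difference of -0.01. Among 20 contractile partners of actin in smooth muscle, 1 rose and 0 fell, with a median of 0.00. The one that rose was Ldb3, a Z-disc protein (2.15, adjusted p = 0.0183). Its call was lost without adult replicate 1 (adjusted p = 0.0778), adult replicate 3 (0.0683) or postnatal day 1 replicate 2 (0.0646). Of 13 tested genes of serum response factor and its partners, 0 rose and 2 fell, with a median of -0.73: Tcf21, a mesenchymal transcription factor (-1.91, adjusted p = 0.00673), and Fhl2, a LIM protein (-1.11, adjusted p = 0.0394). Tcf21 kept its call when any 1 array was left out, but lost it by the mean of all its probe sets (-1.03, adjusted p = 0.0547). Fhl2 lost its call without any 1 array (adjusted p from 0.0563 to 0.123). Without any 1 array, 1 member of that list was called.

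Of 21 genes of monomer binding and filament turnover, 2 rose and 3 fell, with a median of -0.20. Tmsb10, which holds actin monomers, read 12323, 28579 and 11362 in adult and 49897, 42030 and 49291 in newborn bladders, without overlap (-1.56, adjusted p = 0.0222). By the mean of all Tmsb10 probe sets the difference was -0.78 and not called (adjusted p = 0.256). Wdr1, which helps cofilin take filaments apart, fell by 1.67 (adjusted p = 0.0181). Cap2, a muscle-rich form of cyclase-associated protein, rose by 2.09 (adjusted p = 0.0163) and Scin, a severing protein, by 1.84 (adjusted p = 0.036). Scin read 115, 164 and 176 in newborn bladders, below each array median, so it passed the filter through the adult arrays alone. The other one that fell was Pfn1, a profilin that loads monomers onto filaments (-1.52, adjusted p = 0.045). Leaving out single arrays gave 0 to 6 calls: 1 without adult replicate 1, 6 without adult replicate 2, 0 without adult replicate 3, and 1, 1 and 2 without postnatal day 1 replicates 1, 2 and 3. Leaving out adult replicate 2 kept the calls of Tmsb10 and Scin, and leaving out any other array ended them (adjusted p 0.0615 to 0.0904 and 0.0614 to 0.196). Cap2 lost its call without adult replicate 1 (0.0651) or 3 (0.0759), and Wdr1 lost it without adult replicate 3 (0.0586) or postnatal day 1 replicate 1 (0.0731) or 2 (0.0735).

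The remaining lists held few calls. Of 15 genes that fold actin, the chaperonin and prefoldin, 1 fell: Pfdn4 (-1.21, adjusted p = 0.0394, and 0.0549 to 0.146 when any 1 array was left out), with a list median of -0.28. Of 20 genes of the Arp2/3 complex, formins and other nucleators, 1 fell: Diaph3, a formin of dividing cells (-2.61, adjusted p = 0.041), which lost its call without any 1 array other than adult replicate 2 (0.0826 to 0.149). Diaph3 read 20.3, 164 and 5.92 in adult bladders, below each array median, so it passed the filter through the newborn arrays alone. The list median was -0.01, and 4 members were called without adult replicate 2. Of 21 genes of capping, bundling and crosslinking, 1 fell: Tpm4, a tropomyosin of nonmuscle cells (-1.40, adjusted p = 0.00998, and 0.0544 without adult replicate 3, which left no call on the list), with a median of -0.17. Tpm4 read 10256, 16254 and 9589 in adult and 33117, 31125 and 28541 in newborn bladders. Of 6 tested actin-related proteins, 0 were called by limma (1 had an unadjusted p under 0.05, and the list median was -0.31), and the 2 brightest, Actr1a and Actl6a, gave -0.02 and -0.59 (adjusted p = 0.967 and 0.183).

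The striated partners that were called between the stages all fell, as did Acta1 and Actc1. Of 12 tested genes of the striated thin filament and sarcomere, 4 fell and 0 rose, with a median of -1.0: Tnnc2 (-5.66, adjusted p = 7.02e-05), Tnnt3 (-4.50), Tnnt1 (-3.97) and Tnnc1 (-2.35, adjusted p = 0.0111), all troponin subunits of the calcium switch on striated thin filaments. Tnnt1 read 422, 160 and 736 in adult and 7067, 4996 and 8153 in newborn bladders. The rest of the 21 genes on the array were not above the median on enough arrays to be tested. Tnnc2, Tnnt3 and Tnnc1 lay below the array median on every adult array, so they passed this filter through the newborn arrays alone. The counts and the median of this list depend on that filter. Between 4 and 7 members were called when 1 array was left out, with 6 when adult replicate 2 was absent and 7 when postnatal day 1 replicate 3 was. Against the whole newborns, 9.58% of all genes tested were called in newborn bladder, 3.19% higher and 6.39% lower, and 15.3% in adult bladder, 6.08% higher and 9.23% lower. Of the 21 striated genes, 14 fell and 1 rose in newborn and 17 fell in adult bladder, with medians of -3.33 and -4.80. Of the 20 contractile partners of smooth muscle, 16 and 17 rose, with medians of 2.43 and 2.38, against medians over all genes of -0.0031 and -0.03. The one that fell in newborn bladder was Ldb3 (-3.13, adjusted p = 0.016).

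With adult replicate 2 as the only adult array, Tnnc2, Tnnt3 and Tnnt1 kept their calls between the stages (adjusted p = 0.0185, 0.0262 and 0.0218). The other called genes named from these lists lost theirs, Tcf21 (0.128), Tpm4 (0.127) and Tnnc1 (0.14) among them; Pfn1 was not followed. With values as a percent of the 100 highest, Fhl2, Ldb3, Pfdn4, Cap2, Wdr1 and Scin were not called (adjusted p from 0.0613 to 0.245). Without the filter on low values, Fhl2, Pfdn4, Tmsb10, Scin and Diaph3 were not called (adjusted p from 0.0507 to 0.0739).

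Other cells of the bladder wall also hold actin. The 8 markers of vascular mural cells, the pericytes and muscle cells of vessels, summed to 67067 to 73715 in adult and 65201 to 75197 in newborn bladders, and to 22652 in the whole newborns, and 2 of the 7 tested were higher in adult bladder. The 8 fibroblast markers summed to 202942 to 334277 in adult, highest in adult replicate 2, and to 262791 to 334058 in newborn bladders. The smooth muscle markers summed to 246633 to 313592 and 223912 to 290940, with the highest adult value again in adult replicate 2, and to 28036 in the whole newborns. Leukocyte markers summed to 20791, 49329 and 25407 in adult and 8798 to 13270 in newborn bladders. Of these 7 markers 2 were higher in adult bladder. Of the 8 fibroblast markers 1 was lower, and of the 8 smooth muscle markers 0 were called. Over all genes tested, 4.02% were higher and 4.95% lower in adult bladder. The part of these cells in the actin values was not tested.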

How the data were processed

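RNA of 6 bladders and 1 pool of whole newborns was amplified in 2 rounds and hybridised to Affymetrix mouse 430 arrays, per the labels' protocols. The authors deposited 1 linear intensity for each probe set and array, made with GCOS per the submitters' processing notes. The labels name neither its version nor its settings. Without the highest and lowest 2%, each array had a mean of 1500.01. Probe sets were named through the platform annotation: of 45050 that are no array controls (51 were left out, apart from the Actb controls), 34958 name 1 gene, 932 several and 9160 none.

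Values were taken as log2(intensity + 49), the 20th percentile of all values, so fold changes of dim probe sets are understated. Probe sets above the array median in at least 3 of the 6 bladder arrays, or 1 of the 4 arrays in a comparison with whole newborns, were tested with limma 3.58.1 in R 4.3.3 (trended eBayes, Benjamini-Hochberg adjustment over all tested, threshold 0.05). All 12 actin probe sets passed this filter. Single values were compared by exact permutation, enumerated in Python 3.11.15. The number of arrays limits the precision. Between the stages, p-values measure the spread between single bladders together with whatever else differs between their arrays. Against the whole newborns, the pooled array has no spread of its own, so p-values there rest on the spread of the bladder arrays. On simulated data for the stage comparison, 10% of probe sets changed by 1 on the log2 scale, 62% of those changed by 2 and 0.0176% of 22767 unchanged ones were called. For a change of 2, 16% were called in the comparison of newborn bladder with whole newborns and 28% in that of adult bladder, so changes of that size can be missed there. The simulation changed only 50 bright probe sets for each size, and its probe sets varied independently. The real arrays held more changes and shared differences in scale, so these rates need not carry over to them.

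The actins, gene lists and tests were chosen with earlier results of these data known. The text names the actins; for each list, up to 4 called members of smallest p and any against the majority, or the 2 brightest where none was called; and the 3 genes most like each actin. Pfn1, Flnc, Ttn, the single muscle markers (Myh3, Myh7, Myh8, Mylpf, Myl2, Myl3, Myl4 and Tnnt2) and the array values of Hmga2 were chosen for print after they were seen. Alternatives were other pseudocounts, normalizations, filters and variance models, and left-out arrays.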

Additional observations from a re-analysis of the deposited data

How the results depend on the processing

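Over the 18 actin results (6 genes in 3 comparisons), 334 of 351 alternatives kept the call and, where called, the direction, 4 lost a call, 13 gained one and 0 turned a called direction. Actg2 between the stages gained a call with array weights (-0.62) and without both arrays of highest spike-in signal (-0.61), and ranged from -0.68 to -0.15 with 1 array left out. Acta1 between the stages lost it without both adult arrays with accessory gland transcripts (-1.71). Against the whole newborns, Acta2 gained calls with quantile normalization (0.88 for newborn, 1.00 for adult bladder), median centring (1.39 and 1.53), the mean of all its probe sets (2.97 and 2.62) and percent of the 100 highest values (0.97 and 1.09). Actc1 in adult bladder lost its call with median centring (-1.10), no trend (-1.77) and percent of the 100 highest (-1.54). Without both arrays of highest spike-in signal Actb (-0.81) and Actg1 (-0.57) gained calls in adult bladder. The causes were not tested. The scale on the 100 highest values, chosen after seeing the data, is one of these.

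The 1829 probe sets called between the stages became 4664 with array weights, 244 without both accessory gland arrays, and 605 to 2323 with 1 array left out. The 2103 in newborn bladder against whole newborns became 1327 with the pseudocount of 9, 4176 with array weights, 4087 without both spike-in arrays, 963 without both accessory gland arrays and 1407 to 2620 with 1 array left out. The 3252 in adult bladder became 8372, 6137 and 1167 in the same settings but the pseudocount, and 1794 to 4700 with 1 array left out. Where 1 adult array remained, it was assumed to vary like the newborn ones. No paired analysis was possible because the replicate numbers were given in accession order and pair no animals.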
